A study of Homo sapiens with 36 samples.

Results

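The 9p21 tumour suppressor locus was examined as a window of 2 Mb on chromosome 9, from 21 to 23 Mb of the hg38 build, around 5 genes: CDKN2A, CDKN2B, MTAP, MIR31HG and DMRTA1. Every peak that touched the window was taken from 16 peak lists, which gave 582 of 476964 peaks. The 5 genes were chosen by name from 62700 annotated genes. The lists came from chromatin immunoprecipitation and sequencing (ChIP-seq), which finds where a protein or histone mark sits on DNA, in 2 human cell lines. A549 is a lung adenocarcinoma line, and B2B (BEAS-2B) is a non-cancerous bronchial epithelial line that was immortalized with SV40. B2B is therefore not a sample of normal bronchial tissue. Both lines were grown without treatment, and each was crosslinked with formaldehyde. A549 had 7 targets (RNA polymerase II, H3K4me3, Med1, H3K27ac, JunB, Jun and JunD) and B2B had the same 7 and CTCF and Rad21. Each list was called by the authors on 2 pooled replicates, so no value has a replicate error, no difference was tested. Intervals cover counting error only, and neighbouring peaks are not independent of each other. The read depth behind the lists is unknown. The lists held 8597 to 61368 peaks.

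The locus holds a cluster of growth-control genes. CDKN2A encodes p16, an inhibitor of the cyclin-dependent kinases CDK4 and CDK6, and from another start site ARF, which binds MDM2. CDKN2B encodes p15, a second inhibitor of CDK4 and CDK6. MTAP, beside them, encodes methylthioadenosine phosphorylase, the enzyme that starts the methionine salvage pathway. The antisense long noncoding RNA CDKN2B-AS1 runs across CDKN2B, MIR31HG is the host gene of miR-31, and DMRTA1 is a DMRT-family transcription factor gene. Loss of this locus is common in lung and other cancers. H3K4me3 marks active start sites, H3K27ac marks active promoters and enhancers, and Med1 is a subunit of the Mediator complex that joins enhancers to RNA polymerase II (pol II). CTCF with cohesin, here its subunit Rad21, marks sites that hold chromatin loops. Jun, JunB and JunD are subunits of the transcription factor AP-1.

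A549 had no peak of any of the 7 targets over 341.23 kb, at chr9:21812743-22153972, and B2B had 117 peaks of the same targets there. The stretch holds 92.5% of the length of MTAP and the whole of CDKN2A, CDKN2B and CDKN2B-AS1. The first of the annotated MTAP start sites, MIR31HG and DMRTA1 lay outside it and carried peaks in A549. Other annotated MTAP start sites lay inside it. The locus is named as deleted in A549, and peaks were called in A549 on both sides of the stretch. Whether DNA was lost, and how far such a loss reaches, was not tested. A list without peaks cannot tell lost DNA from DNA that carries no mark, and input chromatin was not analysed here.

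**Figure D1:**
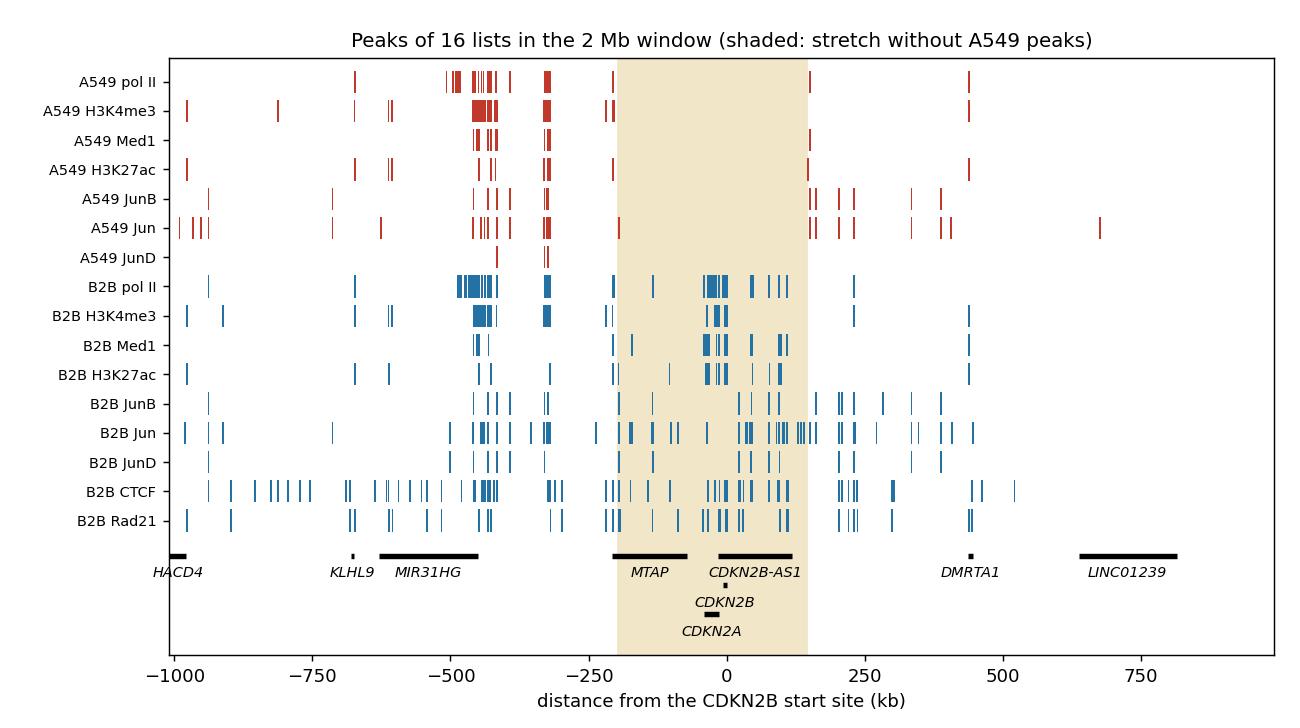
Peaks of the 16 lists across the 2 Mb window, 1 row for each list, red for A549 and blue for B2B. The horizontal axis is the distance in kb from the CDKN2B start site, black bars are genes, and the shaded stretch of 341.23 kb holds 0 A549 peaks and 117 B2B peaks of the 7 shared targets.

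The DNA before 4 start sites of member genes is shown first. MTAP, the member gene nearest to the stretch with a promoter marked in A549, is set beside 3 start sites of CDKN2A and CDKN2B marked only in B2B. The sequences are the bases just before each start site in RefSeq (GRCh38.p14), on the strand of the gene, with GC boxes (GGGCGG or CCGCCC, found on either strand) in capitals. Bases in an annotated UTR were left out, so the p16 sequence is 241 bases long and the others 250. All 5 member genes were found in the RefSeq table, with 6 start sites, since CDKN2A has 2.
MTAP, chr9:21802386-21802635, plus strand: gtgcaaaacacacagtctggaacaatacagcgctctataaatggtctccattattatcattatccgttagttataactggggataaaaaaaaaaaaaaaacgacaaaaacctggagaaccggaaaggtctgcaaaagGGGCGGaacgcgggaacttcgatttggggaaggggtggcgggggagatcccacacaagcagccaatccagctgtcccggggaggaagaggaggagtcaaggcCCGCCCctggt
CDKN2A p16 start, chr9:21974867-21975107, minus strand: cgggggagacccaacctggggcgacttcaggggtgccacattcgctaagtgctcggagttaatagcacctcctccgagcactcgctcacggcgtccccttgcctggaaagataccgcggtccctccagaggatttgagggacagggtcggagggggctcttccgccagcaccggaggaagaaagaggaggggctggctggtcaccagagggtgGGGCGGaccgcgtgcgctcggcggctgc
CDKN2A ARF start, chr9:21995325-21995574, minus strand: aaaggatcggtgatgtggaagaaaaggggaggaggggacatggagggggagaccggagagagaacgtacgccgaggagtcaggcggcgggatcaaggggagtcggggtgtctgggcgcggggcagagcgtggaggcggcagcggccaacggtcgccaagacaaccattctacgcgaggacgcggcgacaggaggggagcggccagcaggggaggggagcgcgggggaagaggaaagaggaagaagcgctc
CDKN2B, chr9:22009306-22009555, minus strand: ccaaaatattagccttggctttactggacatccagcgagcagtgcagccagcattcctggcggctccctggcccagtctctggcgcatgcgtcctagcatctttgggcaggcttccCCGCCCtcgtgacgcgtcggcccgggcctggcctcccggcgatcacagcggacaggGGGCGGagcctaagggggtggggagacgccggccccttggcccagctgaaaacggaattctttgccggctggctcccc
The GC content was 50% for MTAP, 66.4% at the p16 start, 66.8% at the ARF start and 66.4% for CDKN2B, beside a median of 58% over 35116 RefSeq promoters. They held 11, 19, 24 and 18 CpG in that order, and the median promoter held 11. GC boxes were found 2 times for MTAP, once at the p16 start, at no place for the ARF start, and 2 times for CDKN2B, and 42.6% of all promoters had one. MIR31HG had a GC content of 78% and 3 GC boxes, and DMRTA1 61.6% and 3. No AP-1 motif (TGACTCA or TGAGTCA, which are each other's reverse complement) was in any of the 6 sequences, and 4.2% of all promoters had one. The highest GC content of the 6, at MIR31HG, and the lowest, at MTAP, were both outside the stretch.

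The stretch was bounded by Jun on 1 side and H3K27ac on the other. The last A549 peak before it was a Jun peak at chr9:21812462-21812742 in an intron of MTAP, 10.1 kb after the MTAP start site, with a fold enrichment over the caller's local background of 11.6. B2B had a Jun peak at the same place, chr9:21812468-21813348, with a fold enrichment of 15.2. The first A549 peak after the stretch was an H3K27ac peak at chr9:22153973-22154155, between genes, with a fold enrichment of 5.09, and B2B had no peak there. The first A549 peak that B2B shared was a Jun peak at chr9:22158366-22158553 (10.7 in A549, 6.79 in B2B). The 2 shared Jun peaks were 345.62 kb apart. B2B peaks were called nearly to both ends of the stretch, though they covered only 11% of it. The first, of JunB (5.77-fold), began 0.39 kb after its start, and the last, of Jun (8.32-fold), ended 5.45 kb before its end. Another 2 B2B peaks, of Jun and JunB, crossed the start of the stretch.

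Within 10 kb after the stretch A549 had 9 peaks and B2B had 1. The 9 were 3 of H3K27ac, 2 of Jun, 2 of JunB, 1 of pol II (chr9:22158968-22159362, fold 5.23) and 1 of Med1 (chr9:22159145-22159396, fold 6.05), none within a gene. Within 10 kb before the stretch A549 had 2 peaks and B2B 4. The stretch ends at an A549 peak by definition, so A549 signal directly after it was fixed in advance. Several of the 9 peaks lie side by side or overlap. The count before the stretch leaves out the B2B peaks of Jun and JunB that crossed its start. No difference between the lines is read from these counts.

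List by list, the piece of DNA around the CDKN2B start site without a peak in A549 was 345.62 kb for Jun, 350.38 kb for H3K27ac, 355.58 kb for pol II, 470.71 kb for Med1, 473.05 kb for JunB and 641.18 kb for H3K4me3. JunD, with the sparsest A549 list, had no peak over 6527.9 kb there. In B2B the stretch held 29 pol II, 15 H3K4me3, 20 Med1, 16 H3K27ac, 6 JunB, 26 Jun and 5 JunD peaks, which covered 37.66 kb or 11% of it. CTCF and Rad21, which have no A549 list, had 24 and 18 more. The median fold enrichment inside the stretch was above that of the whole B2B list for 6 of the 7 targets. It was 5.29 inside and 3.42 over the list for H3K4me3, 8.87 and 6.33 for Med1, 9.85 and 6.45 for JunB, 7.38 and 5.49 for JunD, 6.69 and 5.49 for H3K27ac, and 5.40 and 4.86 for pol II. For Jun it was lower, 8.07 inside and 8.78 over the list. By the caller's p-value the median percentile was 36.6 for Jun, 38.8 for pol II and 49.2 for H3K27ac, below the middle of their lists. It was 65.7 for Med1, 70.2 for H3K4me3, 72.3 for JunB and 80.1 for JunD. For pol II and H3K27ac the fold enrichment and the percentile thus pointed opposite ways.

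By its definition the stretch held no A549 peak, so none of its 117 B2B regions could be called in A549, and nothing is read from that. Beside it, in the window before the stretch, 101 of 142 B2B regions were called in A549 (71.1%, Wilson 95% interval 63.2% to 77.9%), and in the window after it 15 of 33 (45.5%, interval 29.8% to 62.0%). The 2 sides differ in their mix of targets, so these sums are not a like comparison. H3K4me3 made up 49 of the 142, while Jun made up 15, JunB 7 and JunD 4 of the 33. For Jun alone 12 of 19 were called before the stretch and 7 of 15 after it. Over chromosomes 1 to 12, which every list covers whole, 43% of B2B regions had no A549 peak of the same target. That share was lowest for H3K4me3 (14.1%), followed by pol II (31%), H3K27ac (34.8%), JunB (38.1%), Med1 (46.9%), Jun (63.5%) and JunD (73.4%). Before the stretch H3K4me3 was the most often shared of the targets with over 10 regions, with 44 of 49 regions called in A549, and pol II had 24 of 44.

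**Figure D2:**
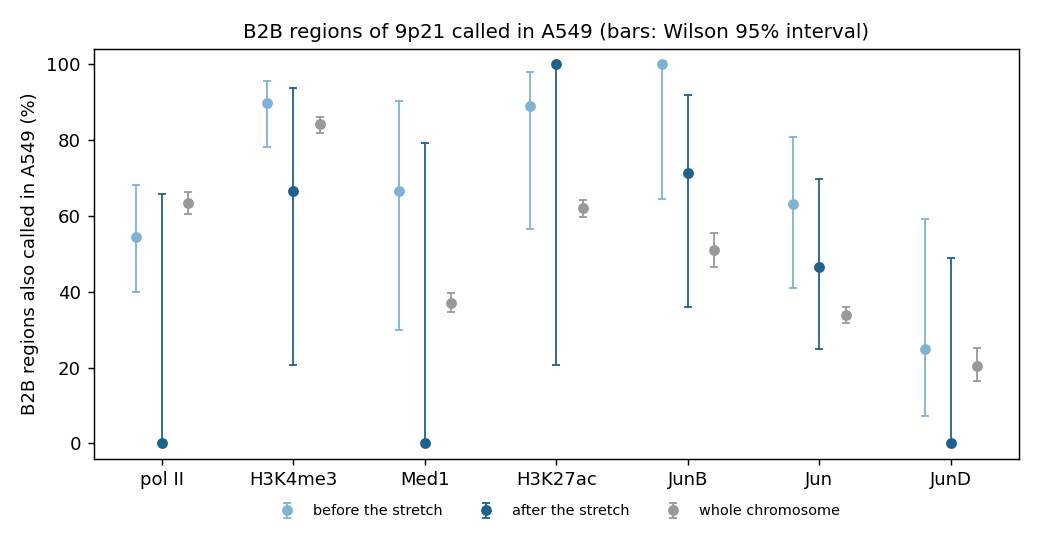
Percent of B2B regions with an A549 peak of the same target (vertical axis), by target (horizontal axis), for the window before the stretch, the window after it, and all of chromosome 9. The stretch itself is not drawn, as it has no A549 peak by definition. Points are shares and bars are Wilson 95% intervals, which are wide where there are few regions, as for pol II after the stretch (0 of 2).

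The stretch was compared with every other piece of DNA between neighbouring A549 peaks on chromosomes 1 to 12. Of 64292 such pieces it held the most B2B peaks, 117. The next held 56, over 588 kb at chr9:18460185-19048211 with the starts of ADAMTSL1 and SAXO1, and the one after it 45. By length it was only the 620th, and the 620 pieces at least as long held a median of 1 B2B peak. No B2B peak at all was in 79.5% of the pieces. Since the locus was chosen with results of these data known, this order is a description. The window has another long piece without A549 peaks, from chr9:22683953 on, which ran 1137.4 kb to beyond the window. Its 316.05 kb within the window held 0 B2B peaks of the 7 targets.

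**Figure D3:**
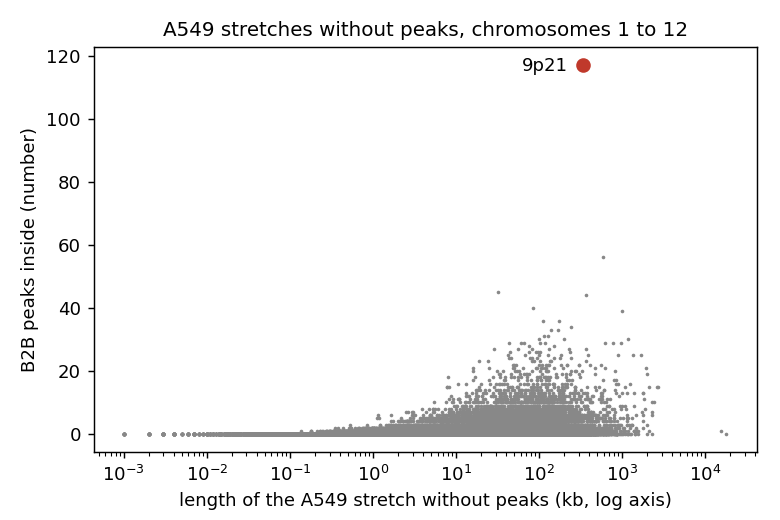
Each point is a piece of DNA between neighbouring A549 peaks on chromosomes 1 to 12. The horizontal axis is its length in kb on a log scale and the vertical axis the number of B2B peaks of the 7 targets inside. The 9p21 stretch, in red, is at 117, and the next piece is at 56.

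Promoters were read as the DNA within 1 kb of any annotated start site of a gene. In B2B all 5 member genes had a promoter peak, and in A549 3 of 5 had one: MIR31HG, MTAP and DMRTA1 were marked and CDKN2A and CDKN2B were not. Among coding genes with a B2B promoter peak on chromosomes 1 to 12, 3.58% had none in A549. For H3K4me3 alone the same 2 members of 5 had no A549 peak, and over all coding genes with a B2B H3K4me3 promoter peak 2.95% had none. MIR31HG is noncoding, so both of these shares stand beside the coding members only. Fold enrichments cannot be compared between lines, so each is given beside the percentile of the peak's caller p-value in its own list.

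CDKN2A had the strongest Mediator signal of the locus in B2B. Its ARF start lay under a Med1 peak at chr9:21993434-21996903 with a fold enrichment of 48.9, at the 99.7th percentile of the list. The H3K4me3 peak over the ARF start, at chr9:21994836-21997121, was enriched 5.29-fold (93.2nd percentile), and H3K27ac 8.83-fold (98.4th percentile). A stronger H3K4me3 peak beside it, at chr9:21992754-21994312 (10.7-fold, 97.1st percentile), ended before the ARF start and lay over the start of CDKN2B-AS1. The p16 start carried Med1 at 21.6-fold (96.3rd percentile), H3K4me3 at 4.08-fold (80.4th percentile) and H3K27ac at 8.35-fold (93.6th percentile). Another H3K27ac peak, at chr9:21973910-21974234 (19.9-fold, 86.0th percentile), lay inside the gene within 1 kb of the p16 start but not over it. Pol II was enriched 4.27-fold at the ARF start and 3.75-fold at the p16 start, so both start sites were marked. Of the Jun family only Jun had a peak over the gene, at chr9:21971760-21972036 (8.35-fold), and JunB and JunD had none. That Jun peak lay in an intron, more than 1 kb from both the p16 and the ARF start, and near another annotated start site of CDKN2A. In all, 41 B2B peaks of the 7 targets and 0 A549 peaks touched the gene.

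CDKN2B had 18 B2B peaks and 0 A549 peaks over its 6.403 kb. The peaks of highest percentile within 1 kb of its start sites were Med1 at 32.9-fold (99.2nd percentile) and pol II at 5.23-fold (95th percentile). H3K4me3 was at 5.55-fold (87.5th percentile) and H3K27ac at 9.69-fold (97.6th percentile). The Jun family was not called at its start sites. CTCF had 4 promoter peaks and Rad21 2, the higher Rad21 peak at 14.5-fold (95.9th percentile). The CDKN2B-AS1 transcript lies over CDKN2B on the other strand and starts beside the ARF start, and peaks carry no strand, so those there cannot be assigned to 1 of these genes. Over its 133.97 kb CDKN2B-AS1 had 61 B2B peaks and 0 A549 peaks, among them 13 of Jun, 4 of JunB and 4 of JunD.

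MTAP was marked at its start in both lines. Further into the gene A549 had a weak H3K4me3 peak at chr9:21804954-21805122 (3.92-fold, 11.5th percentile) and the Jun peak at the edge. In A549 the start site had pol II at 17.4-fold (82.2nd percentile), H3K4me3 at 21.4-fold (69.3rd percentile) and H3K27ac at 30.2-fold (78.8th percentile). In B2B it had pol II at 5.03-fold (82.9th percentile), H3K4me3 at 3.14-fold (71.1st percentile) and H3K27ac at 7.25-fold (84.7th percentile), with Med1 near the foot of its list (3.02-fold, 13.8th percentile). A higher B2B pol II peak, at 11.9-fold (89.6th percentile), ended just before the start site. Over the gene A549 had 5 peaks and B2B 25, of which 10 were Jun. The first 10.1 kb of the gene held all 5 of the A549 peaks.

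**Figure D4:**
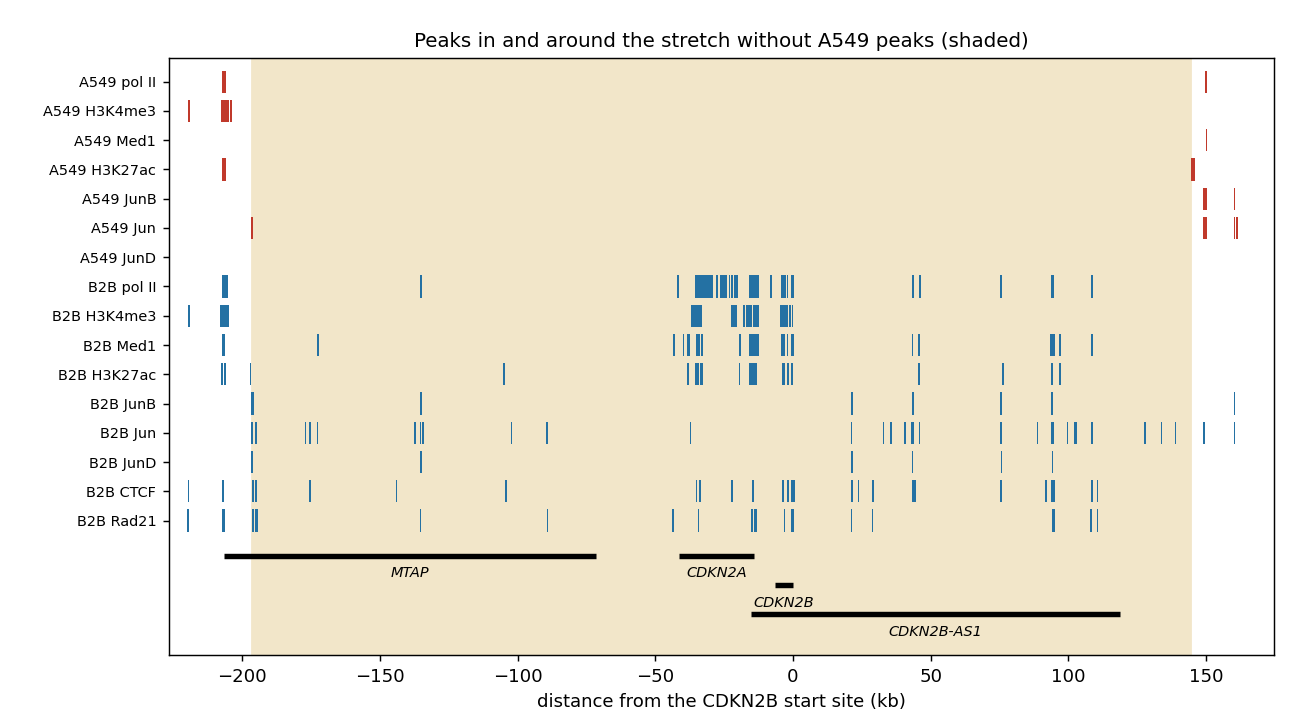
Peaks in the stretch without A549 peaks (shaded) and 30 kb on both sides, by list, with the distance in kb from the CDKN2B start site on the horizontal axis. In B2B the pol II, H3K4me3, Med1 and H3K27ac peaks crowd at CDKN2A and CDKN2B, while 26 Jun peaks spread over the stretch, and A549 (red) has peaks only at the sides.

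Outside the stretch, MIR31HG was marked by pol II, H3K4me3, Med1 and H3K27ac in both lines. In A549 pol II at its start was enriched 53.8-fold (95.8th percentile), H3K27ac 62.3-fold (93.8th percentile) and Med1 15.4-fold (95.6th percentile). In B2B pol II was enriched 4.34-fold (89.0th percentile), H3K27ac 10.0-fold (99.4th percentile) and Med1 13.6-fold (96.6th percentile). The Jun family was called at this promoter in neither line, although A549 and B2B each had 2 Jun peaks over the gene. The gene held 39 A549 and 49 B2B peaks, of which pol II made up 16 and 25. The DNA around and before MIR31HG was the densest of the window: from 21.5 to 21.6 Mb A549 had 75 peaks and B2B 84, and in the next 100 kb they had 39 and 27. MIR31HG starts 252.89 kb before the stretch. The microRNA it hosts is shown because the locus is known for it, with bases 2 to 8, the seed, in capitals.
hsa-miR-31-5p, chr9:21512158-21512178, minus strand: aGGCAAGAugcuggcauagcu
Near MIR31 itself, A549 had a weak pol II peak at chr9:21512629-21512797 (4.48-fold, 15.9th percentile), and B2B had none within 1 kb.

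DMRTA1, 292.85 kb after the stretch, was marked in both lines. In A549 pol II (17.1-fold, 77.4th percentile), H3K4me3 (26.5-fold, 70.0th percentile) and H3K27ac (43.8-fold, 79.3rd percentile) were called at its start, without Med1. In B2B H3K4me3 (2.65-fold, 61.7th percentile), H3K27ac (4.89-fold, 74.8th percentile) and Med1 (6.499-fold, 70.0th percentile) were called, without pol II. Med1 and pol II therefore had opposite calls in the 2 lines, with no replicate to weigh them against. After DMRTA1 the A549 lists held 1 more peak in the window, of Jun at chr9:22683774-22683952 in an intron of LINC01239.

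**Figure D5:**
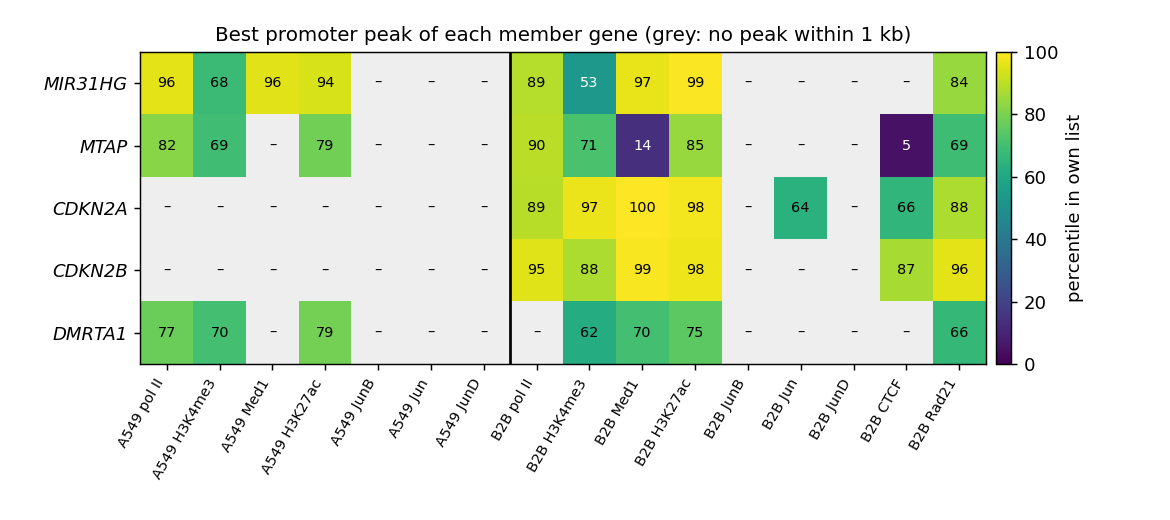
Percentile, in its own list, of the best peak within 1 kb of a start site, for the 5 member genes (rows) and 16 lists (columns), with a colour scale from 0 to 100. Grey cells have no peak. CDKN2A and CDKN2B are grey in all 7 A549 lists and reach 97.1 and 87.5 for B2B H3K4me3.

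Of 59 annotated genes of the window 18 had a promoter peak in some list. Of 11 genes whose start sites all lay in the stretch 6 had one in B2B: CDKN2A, CDKN2B, CDKN2B-AS1, the divergent transcript CDKN2A-DT, and the unnamed transcripts ENSG00000266446 and ENSG00000277653. Of 47 genes with no start in the stretch 10 had a peak of the 7 targets in A549 and 9 in B2B. MTAP, with annotated starts both inside and outside the stretch, was in neither group. The share over all annotated genes was not computed, so these counts only describe the window. The 6 genes in the stretch are not separate calls. CDKN2A, CDKN2B-AS1 and ENSG00000266446 share peaks, among them pol II at chr9:21993325-21996919, and the peaks of ENSG00000277653 were also counted for CDKN2B-AS1. HACD4, an enzyme gene of very long chain fatty acid synthesis, had H3K4me3 and H3K27ac in both lines, and KLHL9, a substrate adaptor of a ubiquitin ligase, had pol II as well. The noncoding ENSG00000261696 and the pseudogene IFNA12P had H3K4me3 in both, and IFNWP19 had only CTCF in B2B. The snoRNA gene SNORD39 within MIR31HG had pol II in both lines. ENSG00000264545 shares the start of MTAP, and the pseudogene TUBB8P1 lies beside the Jun peak at the edge. The 16 coding interferon genes, antiviral cytokines, had no promoter peak in either line.

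Jun-family peaks were called on both sides of the stretch in both lines. Before the stretch 12 Jun-family regions were called in both lines, 6 only in A549 and 7 only in B2B. After it the counts were 7, 4 and 9. The region at the start of the stretch, also called in both lines, is in neither set of counts. A share over all Jun-family regions of the genome was not computed, so these counts only describe the window. By target, 63.5% of B2B Jun regions on chromosomes 1 to 12 had no A549 peak of the same target. For JunB that share was 38.1% and for JunD 73.4%. The stretch, without A549 peaks by definition, held 26 in B2B, and the last B2B region after it ended at DMRTA1, at chr9:22454300.

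Of the 26 B2B regions of the stretch 5 had all 3 proteins, and these are printed beside the Jun peaks shared by both lines on either side. Each line gives 101 bases of the hg38 plus strand, centred on the Jun summit (that of A549 for the last 2), with TGACTCA and TGAGTCA in capitals.
MTAP intron, chr9:21873993-21874093: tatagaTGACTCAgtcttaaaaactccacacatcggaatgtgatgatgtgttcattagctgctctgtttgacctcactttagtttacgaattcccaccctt
CDKN2B-AS1 exon, chr9:22030399-22030499: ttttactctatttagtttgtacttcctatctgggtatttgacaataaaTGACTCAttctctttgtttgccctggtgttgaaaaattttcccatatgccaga
CDKN2B-AS1 intron, chr9:22052704-22052804: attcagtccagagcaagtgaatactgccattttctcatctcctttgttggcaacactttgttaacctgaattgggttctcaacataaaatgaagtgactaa
CDKN2B-AS1 intron, chr9:22084813-22084913: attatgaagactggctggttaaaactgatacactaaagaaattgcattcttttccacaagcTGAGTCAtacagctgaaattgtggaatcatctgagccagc
CDKN2B-AS1 intron, chr9:22103431-22103531: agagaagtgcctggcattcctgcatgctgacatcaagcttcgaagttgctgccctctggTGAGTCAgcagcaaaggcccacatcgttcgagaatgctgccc
last shared Jun peak before the stretch, chr9:21812582-21812682: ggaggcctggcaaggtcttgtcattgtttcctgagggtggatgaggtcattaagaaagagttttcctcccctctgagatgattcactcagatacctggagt
first shared Jun peak after the stretch, chr9:22158386-22158486: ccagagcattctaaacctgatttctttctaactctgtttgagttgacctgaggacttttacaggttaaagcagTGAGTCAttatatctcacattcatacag
Jun was enriched 55.1-fold, 21.7-fold, 36.5-fold, 51.3-fold and 58.9-fold at the 5 sites in this order. The motif was in 4 of the 5, with its centre 41, 1, 14 and 12 bases from the summit, and the site at chr9:22052704-22052804 held neither form. The shared peak before the stretch had no motif and the one after it had one, 26 bases from the summit. Over all Jun peaks of the stretch 10 of 26 summits had the motif within 50 bases (38.5%, interval 22.4% to 57.5%), as did 39.8% of the B2B Jun peaks of all chromosomes. JunB had it at 4 of 6 and JunD at 4 of 5, with 53.6% and 42.8% over all chromosomes. These shares were within counting error of those of their lists.

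B2B elements of the stretch were grouped by the marks they shared. There were 10 H3K4me3 peaks that overlapped pol II, all between chr9:21973375 and chr9:22009213, which is the span from the p16 start to the CDKN2B start. The 4 H3K27ac peaks with Med1 away from start sites lay at chr9:21989563-21990217 in CDKN2A and at 3 places in CDKN2B-AS1. CTCF overlapped Rad21 at 11 places, and the strongest CTCF peak, at chr9:21812993-21813513 in MTAP, was enriched 68.4-fold (99.8th percentile) and began 0.25 kb after the last A549 peak. With the 26 Jun-family regions these summed to 51 over the classes. The classes overlap, so some DNA was counted more than once and the number of separate places is lower.

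Genes that work with the members, on other chromosomes or elsewhere on this one, were mostly marked in both lines. Of 17 other genes of the INK4 and RB axis, which are the cell-cycle inhibitors, the kinases they block, their cyclins, the RB family, E2F factors and MDM2, 15 had an H3K4me3 promoter peak in both lines. Over all coding genes 72% had one in A549 and 61.5% in B2B. The other 2, CDKN1C (the inhibitor p57) and CCND2 (cyclin D2), had one in A549 only, and 17.1% of coding genes with an A549 H3K4me3 promoter peak had none in B2B. CDK4 and CDK6, the kinases that p16 and p15 inhibit, and RB1 were among the 15. A Jun-family peak was at the promoter of 8 of these genes in A549 and 3 in B2B, and over all coding genes at 37.7% and 16.5%. All 10 genes of methionine salvage and its neighbours, among them MAT2A and PRMT5, had H3K4me3 in both lines, and 8 had a Jun-family peak in A549 and 2 in B2B.

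The labelled cell types were read from H3K4me3 at marker genes. All 5 epithelial markers (KRT8, KRT18, KRT7, EPCAM and CDH1) had it in both lines. Of 4 alveolar markers NKX2-1 had it in both, SFTPC in A549 only and SFTPB and NAPSA in neither. Of 3 basal airway markers TP63 had it in A549 only and KRT5 and KRT14 in neither, so none of the 3 basal markers had it in B2B. The leukocyte gene PTPRC and the endothelial gene PECAM1 had none, and the fibroblast gene COL1A1 had it in both.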

How the data were processed

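ChIP-seq of 36 samples was deposited in 18 groups of 2 replicates, 4 of the samples being input chromatin (not analysed here). Per the study's methods, the authors aligned reads to hg38 with Bowtie2 (2.4.4), removed duplicates, merged replicates, used SAMtools (1.13) for CPM scaling, and ran MACS2 (2.2.7.1) as the peak caller. The caller's options and control are not given in the sources used here. Each of the 16 deposited lists gives, per peak, a score (10 times −log10 of the q-value, rounded down), a fold enrichment over the local background and the −log10 p-value, with a summit offset. In 4 lists chromosomes or parts of them were not covered, but chromosome 9 was covered in all.

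Members and gene lists were chosen with earlier results of these data known. A B2B region counted as called in A549 when an A549 peak of the same target overlapped it by 1 bp or more. A stretch without peaks is the DNA between neighbouring A549 peaks of any of the 7 targets. It counted as in the window when it began and ended there. Gene starts came from GENCODE 44. The percentile ranks a peak's p-value in its own list. Named genes were the members, the other genes of the window with a peak in any list within 1 kb of a start, and those of 2 pathway lists whose H3K4me3 call differed between lines. One gene of these lists is not reported here. Genes named beyond that rule were chosen after their values were seen. Python (3.11.15), SciPy (1.17.1) and pysam (0.24.0) were used. The counting was tested on 5 simulated lists and recovered the planted stretch and the overlaps of bedtools (2.31.1) in 5. Since replicates were pooled, no test between lines was made.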

Additional observations from a re-analysis of the deposited data

How the results depend on the processing

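No paired analysis was possible because each list pools its replicates, and for the same reason no replicate could be left out. Of 27 recomputed values 23 stayed within their limits (counts within 1.5 times, the share within its interval, lengths and ranks equal). Without the Jun-family lists the A549 stretch was 348.85 kb long, and without the pol II, Med1 and H3K27ac lists 345.62 kb, with 52 B2B peaks of the remaining 4 targets in place of 117, as fewer lists were counted. The share of B2B regions of the window called in A549 was 39.8% as deposited and 23.8% when 50% of both peaks had to overlap. Only peaks with a −log10 q of at least 5 left the stretch at 341.23 kb with 108 B2B peaks. The stretch held the most B2B peaks in each of the 4 settings in which the order was recomputed. One of these, lists cut to equal length for each target (111 B2B peaks in the stretch), was chosen after seeing the data. The A549 member genes with a promoter peak numbered 3 and those of B2B 5 in each setting tried. The depth of the libraries is unknown, so how weak an A549 peak could still have been called is not known.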

Other observations

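The same count was made the other way round, over pieces of DNA between neighbouring B2B peaks on chromosomes 1 to 12. The piece with the most A549 peaks held 117 over 136.05 kb at chr9:72841704-72977756, with the start of ALDH1A1, an aldehyde dehydrogenase that makes retinoic acid. The next held 93 over 103.31 kb at ASPH, an aspartyl hydroxylase gene. Others were a piece of 1068.4 kb with PDE3A and the SLCO1 organic anion transporter genes (92 peaks), one with the aldo-keto reductase genes AKR1B10 and AKR1B15 (88 peaks), and one of 2572.9 kb at AUTS2 (87 peaks). These genes were named after their values were seen.

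After the 9p21 stretch, the A549 pieces with the most B2B peaks were those with the starts of ADAMTSL1 and SAXO1 (56 peaks), a piece of 31.6 kb on chromosome 6 at chr6:52543942-52575502 with no coding start (45 peaks), and one with the start of CELF2, an RNA-binding protein gene (44 peaks over 366 kb). The 9p21 stretch held 34.3 B2B peaks for each 100 kb, and these held 9.52, 143 and 12.01.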
